A study of Mus musculus with 8 samples.

Results

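Tmem158, Rasl11b and 8 genes that restrain the Ras/ERK pathway were followed through the nuclei of the mouse iris. The 8 feedback genes were the phosphatases Dusp1, Dusp4, Dusp5 and Dusp6, the Sprouty genes Spry1, Spry2 and Spry4, and Spred1. They were picked by name, as 10 of the 22873 genes counted, and the differences between dilated and untreated irises helped to choose them, so those differences are given here as a description. Where a member is said to be past the thresholds of the fit over all genes, this is stated beside the background and supports nothing. All 10 genes had transcripts, from 73 for Dusp5 to 7416 for Rasl11b over the whole dataset.

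Irises, with a variable portion of the ciliary body, came from wild type female albino mice aged 6 to 8 weeks, and 5 to 6 irises were pooled for each library. Untreated irises gave 3 libraries. Constriction with 5% pilocarpine eye drops gave 3 libraries from mice kept in the light, and dilation with 5% phenylephrine and 1% cyclopentolate gave 2 libraries from mice kept in the dark, with hourly drops over 6.5 hours in both cases. Drug and lighting cannot be told apart. The 34357 nuclei held 109565284 unique molecular identifiers (UMIs), which count RNA molecules, and the authors divided the nuclei into 10 cell types. The libraries held 5189437 to 25136427 UMIs, with medians of 2775 to 4697.5 per nucleus. The types were dilator muscle, 2 sphincter muscle types, iris pigment epithelium (iris PE), ciliary body epithelium (CBE), other ciliary body cells (CB), 2 stromal types, endothelial cells and leukocytes. Several of the listed markers were highest in the cell type they stand for, and others were not. Adra1a, the receptor that phenylephrine acts on, averaged 479 counts per 1000000 UMIs (CPM) in untreated dilator nuclei, Ttn 1683 in sphincter 1, Sox10 963 in stroma 1, Tfap2b 2698 in stroma 2 and Ptprc 517 in leukocytes. Sphincter 2 carried both Adra1a, at 226 CPM, and the muscarinic receptor gene Chrm3, at 665 CPM. Chrm3 was higher in sphincter 1, at 3958 CPM, and in endothelial cells, at 722 CPM. The markers listed for sphincter 2, Chrm3, Syt1 and Myh11, were all highest in sphincter 1, and Myh11 was also listed for dilator muscle. Of the CBE markers, Zic1 was highest in iris PE, and Pax6 and Slc4a5 in CB. Otx1 and Pax6, listed for iris PE, were highest in CBE and CB.

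Growth factor receptors and many G protein-coupled receptors switch on Ras, a small GTPase that starts the kinase relay of Raf, MEK and ERK. Active ERK induces genes whose products then shut the relay down. Among these, DUSP proteins remove phosphates from MAP kinases, while Sprouty and SPRED proteins act upstream, at the level of Ras and Raf. TMEM158 is a membrane protein first described as a gene induced by activated Ras, and RASL11B is a small GTPase of the Ras superfamily.

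Positions are those of the GENCODE vM21 annotation on GRCm38, the assembly also called mm10. Tmem158 has a single exon on the minus strand of chr9:123259053-123260764, and Rasl11b has 4 exons on the plus strand of chr5:74195286-74199481. The phosphatase genes lie at chr17:26505590-26562128 (Dusp1, minus strand), chr8:34807297-34819894 (Dusp4, plus), chr19:53529109-53542431 (Dusp5, plus) and chr10:99263231-99267489 (Dusp6, plus). Spry1 lies at chr3:37639947-37644598 on the plus strand, Spry2 at chr14:105891947-105896819 on the minus strand and Spred1 at chr2:117121374-117182279 on the plus strand. Introns were counted along with exons, which matters most where the annotated span is long, at 60.9 kb for Spred1 and 56.5 kb for Dusp1. The annotated span of Dusp1 overlaps the protein-coding gene Ergic1 on the other strand, and Dusp5, Spry1 and Spry4 overlap annotated transcripts on the other strand. How the strand was treated in the counting is not given in the sources used here, so reads from overlapping genes may not have been told apart.

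The bases before the start site are shown for 3 members that were higher in dilated irises and that held a match to a motif of a transcription factor. They are RefSeq sequences on GRCm38.p6 and run 5′ to 3′ on the strand of the gene, from 250 bases upstream to the base before the RefSeq start site. This site differs from the GENCODE start given above. The Dusp1 bases lie within the GENCODE span of Dusp1. For Rasl11b and Dusp5 the last bases lie past the GENCODE start, and in Rasl11b these include the ETS match. Capitals mark matches to the cyclic AMP response element TGACGTCA in Dusp1, to the CArG box, the binding motif of serum response factor, in Dusp5, and to the ETS motif CCGGAA in Rasl11b.
Dusp1, chr17:26508473-26508722, minus strand: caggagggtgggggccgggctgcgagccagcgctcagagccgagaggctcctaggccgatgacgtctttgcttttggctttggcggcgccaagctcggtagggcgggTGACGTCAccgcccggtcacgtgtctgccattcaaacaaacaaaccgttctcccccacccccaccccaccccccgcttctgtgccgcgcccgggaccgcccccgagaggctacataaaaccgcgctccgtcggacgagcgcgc
Dusp5, chr19:53528895-53529144, plus strand: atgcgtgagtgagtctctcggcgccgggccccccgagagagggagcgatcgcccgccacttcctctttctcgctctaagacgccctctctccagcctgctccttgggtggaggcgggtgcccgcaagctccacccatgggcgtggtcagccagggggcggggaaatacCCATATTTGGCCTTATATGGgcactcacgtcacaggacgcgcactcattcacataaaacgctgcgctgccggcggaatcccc
Rasl11b, chr5:74195076-74195325, plus strand: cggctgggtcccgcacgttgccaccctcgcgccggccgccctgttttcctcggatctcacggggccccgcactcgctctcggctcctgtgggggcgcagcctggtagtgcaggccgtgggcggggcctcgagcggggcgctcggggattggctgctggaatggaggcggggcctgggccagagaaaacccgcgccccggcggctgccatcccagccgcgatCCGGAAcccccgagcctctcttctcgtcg

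Promoter windows of 300 bases, of which 50 lie after the start site, were searched on both strands for 7 of the 10 members. TGACGTCA began 143 bases before the start of Dusp1 and was in 1.88% of the windows of 27025 genes. Its core TGACG, which the full element contains, was found in Dusp1 and Dusp5 and in 21.0% of all windows. Dusp5 held a pair of CArG boxes side by side, CCATATTTGG from 82 bases before the start and CCTTATATGG from 72 bases before it, whereas 1.57% of all windows held at least 1. The ETS motif CCGGAA was in Rasl11b and in Spry2 and in 15.2% of all windows. No member window held the AP-1 motif TGANTCA, the EGR motif GCGGGGGCG or TATAAA, against 7.93%, 2.92% and 14.2% of all windows. These are matches of letters only.

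In the comparison of dilated with untreated irises, a transcript counted as changed when edgeR's adjusted p was under 0.05 and its log2 fold change was above 0.6 or below -0.6. In dilator muscle 8 of the 10 members had enough counts to enter the fit, and 6 were past both thresholds, all of them higher in dilated irises, where 13.3% of the 15395 genes fitted were past them in either direction and 7.2% were higher. Sphincter 2 had 2 of 2 members past the thresholds (2.87% of all genes, 1.46% higher), stroma 2 had 2 of 8 (1.73%, 1.35% higher), stroma 1 had 1 of 4 (1.17%, 0.786% higher) and iris PE had 1 of 5 (0.595%, 0.453% higher). None was past them in sphincter 1 (0 of 2, 1.95% of all genes), CBE (0 of 3, 0.0122%), CB (0 of 3, 0.0665%) or leukocytes (0 of 1, 1.32%), and no member could be fitted in endothelial cells. Because this contrast helped to choose the genes, these counts support nothing by themselves. Members with few UMIs could also enter a fit through the dilated libraries alone. Rasl11b in sphincter 2 had 7 untreated and 73 dilated UMIs, and Dusp5 in dilator muscle 1 and 39, so the shares of members past the thresholds carry no weight. Just inside the thresholds lay Dusp6 in stroma 1, with a log2 fold change of 1.47 ± 0.34 (SE), and just outside lay Tmem158 in stroma 2, with 1.35 ± 0.33.

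Some libraries stood apart. Untreated replicate 1, with 1479 nuclei, had a higher level in the whole library than both other untreated libraries for 9 of the 10 members, all but Tmem158. The difference was large for Dusp1, at 13.1 CPM against 4.05 and 4.20, and small for Spred1, at 51.8 CPM against 49.3 and 50.5. How often this order holds over all genes was not counted, and levels in the whole library also depend on the mix of cell types. Untreated replicate 1 also shared 63 cell barcodes with dilated replicate 1, which is 4.26% of its nuclei, while the other 27 pairs of libraries shared 0 to 18. Without untreated replicate 1, or without all nuclei whose barcode occurred in another library, 12 pairs of gene and cell type were again past the thresholds. The labels carry library numbers, which fall into 3 runs of consecutive numbers. The first holds replicate 1 of each condition, the second only constricted replicate 2, and the last the other 4 libraries. The paper spread the libraries over preparation batches and sequencing runs but does not say which library fell in which. A run of library numbers is therefore not known to match either. Ratios within the first and last runs of numbers are given for the main levels described. Mean mitochondrial content per nucleus was highest in dilated replicate 1, at 0.102%, and lay between 0.0456% and 0.0789% in the other libraries.

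Tmem158 is taken first. In dilator muscle it stood at 6.23, 6.61 and 9.49 CPM in the untreated libraries, at 13.2, 11.5 and 19.4 CPM in the constricted libraries and at 187 and 213 CPM in the dilated libraries. The dilated libraries lay far above all others, with a log2 fold change of 4.87 ± 0.25 against untreated. Within the first run of library numbers dilated was 30.0-fold above untreated, and within the last run 26.4-fold.

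Sphincter 2 nuclei had the highest mean Tmem158 level in all 3 conditions. Untreated sphincter 2 had 9.16, 37.5 and 57.8 CPM, constricted 32.5, 0 and 46.4 CPM, and dilated 396 and 644 CPM. The log2 fold change of dilated against untreated was 3.63 ± 0.33, and the within-run ratios were 43.3 and 13.5. Within untreated irises the spread of sphincter 2, with a mean of 34.8 ± 24.4 CPM (SD, n = 3), overlapped that of CBE, at 18.5 ± 12.2 CPM, and CBE overlapped stroma 2, at 11.2 ± 4.03 CPM. Sphincter 1, the type that carries Ttn, had only 0 to 10.8 CPM in untreated, 0 to 9.95 CPM in constricted and 24.5 and 32.3 CPM in dilated libraries, and was too low to enter the fit.

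Outside the muscles, both dilated libraries exceeded every untreated library in iris PE, CBE, CB, stroma 1 and stroma 2. How often this order holds over all genes was not counted. In iris PE the level went from 2.51, 4.38 and 7.11 CPM to 23.4 and 22.3 CPM, a log2 fold change of 2.14 ± 0.32, with within-run ratios of 9.33 and 3.88. It was no longer past the thresholds when untreated replicate 2 (2.01), dilated replicate 1 (2.15) or dilated replicate 2 (2.14) was left out. In stroma 1 the level went from 1.79, 2.20 and 1.85 CPM to 19.5 and 15.01 CPM. The log2 fold changes in CBE (1.32 ± 0.44), CB (1.80 ± 0.63) and stroma 2 (1.35 ± 0.33) were not past the thresholds. Within the first run of library numbers, CBE had 32.0 CPM untreated and 35.5 CPM dilated, and within the last 11.7 and 51.7 CPM.

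Transcripts set free when a tissue is homogenized can enter the droplets of other cells. For comparison, the level of each gene outside dilator muscle was taken as a percentage of its level in the dilator nuclei of the same dilated library. Tmem158 reached 10.4% and 7.06% in stroma 1 and 16.1% and 13.7% in stroma 2. The corresponding values were 1.62% and 2.75%, and 3.05% and 0.721%, for Adra1a, and 4.02% and 1.76%, and 4.86% and 2.46%, for Nos1, another gene of dilator muscle. In iris PE, Tmem158 reached 12.5% and 10.5%, Adra1a 6.70% and 2.68%, and Nos1 4.25% and 5.05%. In sphincter 1, Tmem158 reached 13.1% and 15.2%, Adra1a 14.3% and 7.60%, and Nos1 9.84% and 4.86%. In CB, Tmem158 (13.7% and 14.6%) stood beside Adra1a at 18.3% and 14.2%, but above Nos1 at 4.84% and 0%. In CBE, Tmem158 reached 19.0% and 24.3%, and Adra1a 9.34% and 3.04%. Nos1 was below Adra1a in CBE in both dilated libraries. In leukocytes, Tmem158 had 17.5% and 18.6%, from 5 and 3 UMIs, Adra1a had 11.4% and 38.1%, and Nos1 had 9.42% and 55.6%. The part of free RNA in the levels of Tmem158 outside dilator muscle was not tested further.

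Counted by nuclei, 1612 of 3873 dilated dilator nuclei (41.6%) had at least 1 Tmem158 UMI, against 113 of 4357 untreated (2.59%) and 167 of 3376 constricted nuclei (4.95%). With each nucleus thinned to 1000 UMIs, the shares were 15.8% of 3870 dilated (exact binomial 95% interval 14.7 to 17%), 0.762% of 4331 untreated (0.525 to 1.07%) and 1.51% of 3371 constricted nuclei (1.13 to 1.98%). The dilated replicates had nearly the same share, 15.9% and 15.6%. In sphincter 2 the thinned shares were 33.8% of 157 dilated and 3.70% of 351 untreated nuclei. Leukocytes, taken as a type unrelated to the iris muscles, had a UMI in 5 of 102 dilated nuclei (4.90%) at a median of 1874 UMIs per nucleus, while the dilated dilator nuclei had a median of 3758. The intervals cover counting error only.

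**Figure D1:**
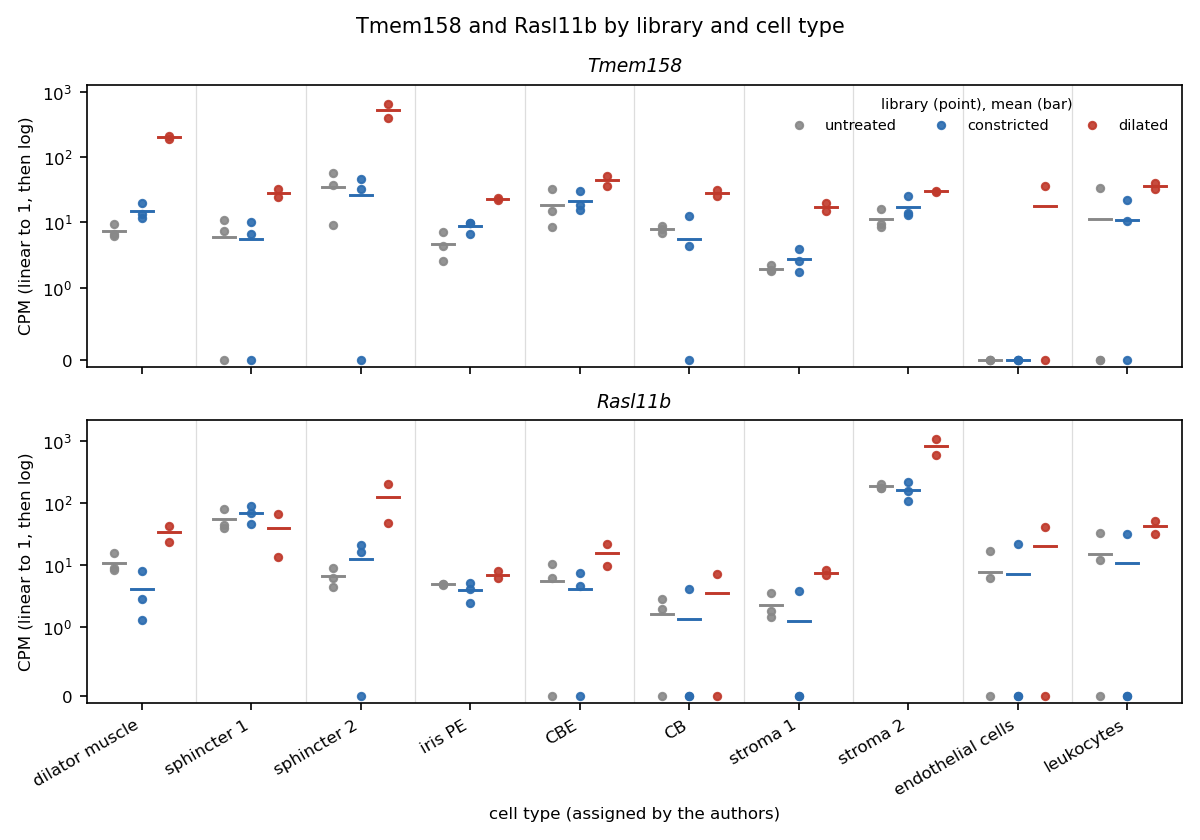
Levels of Tmem158 and Rasl11b in CPM (vertical axes, linear to 1 and logarithmic above) by cell type, with 1 point per library and a bar at the mean of a condition. The 2 dilated libraries lie above every other library for Tmem158 in dilator muscle and sphincter 2 and for Rasl11b in stroma 2, but one of them lies below all untreated libraries for Rasl11b in sphincter 1.

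Rasl11b was foremost a transcript of stroma 2, which held 84.1% of its UMIs, while untreated stroma 1 averaged only 2.30 CPM. In stroma 2 it stood at 205, 178 and 178 CPM in untreated, 221, 109 and 159 CPM in constricted and 606 and 1101 CPM in dilated libraries. The dilated libraries lay above all others but also far apart from each other, and the log2 fold change against untreated was 2.25 ± 0.28. Within the first run of library numbers the ratio was 2.95, and within the last 6.18. After thinning to 1000 UMIs, 45.3% of 2012 dilated and 15.3% of 2921 untreated stroma 2 nuclei had a UMI.

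The sphincter types differed in the resting level of Rasl11b. Untreated sphincter 1 had 80.6, 39.9 and 44.2 CPM, second to stroma 2 and above every untreated library of the remaining types, whereas untreated sphincter 2 had 9.16, 6.24 and 4.45 CPM. With dilation, sphincter 2 had 48.2 and 204 CPM, a log2 fold change of 4.52 ± 0.59 that fell short of the thresholds without dilated replicate 2 (3.01). The within-run ratios were 5.26 and 38.2. Sphincter 1 had 13.6 and 66.9 CPM, 1 library below and 1 within the untreated range, a log2 fold change of -0.17 ± 0.45, and its within-run ratios, 0.169 and 1.59, lay in opposite directions. The difference between the sphincter types was not tested.

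In dilator muscle, untreated libraries had 15.6, 9.01 and 8.38 CPM of Rasl11b, constricted libraries 8.13, 1.33 and 2.84 CPM and dilated libraries 24.2 and 43.9 CPM. The 3 conditions did not overlap. The log2 fold change of dilated against untreated was 1.94 ± 0.42, and 1.35 without dilated replicate 2, which was not past the thresholds. The within-run ratios were 1.55 and 5.05. Stroma 2 of the same dilated libraries had 606 and 1101 CPM. The part of free RNA in the levels of Rasl11b outside stroma 2 was not tested.

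Dusp1 encodes a nuclear phosphatase of MAP kinases and is an immediate early gene. In dilator muscle it had 12.5, 5.49 and 5.38 CPM in untreated, 4.07, 6.20 and 11.8 CPM in constricted and 19.6 and 63.1 CPM in dilated libraries. Both dilated libraries were above the rest but far apart from each other, with a log2 fold change of 2.82 ± 0.53. Within the first run of library numbers dilated was 1.58-fold above untreated, and within the last 11.6-fold. Without dilated replicate 2 the log2 fold change was 1.63 and not past the thresholds. Stroma 2 had 6.04, 1.88 and 2.55 CPM in untreated and 23.2 and 36.2 CPM in dilated libraries, a log2 fold change of 3.41 ± 0.44, with within-run ratios of 3.83 and 16.4.

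In iris PE the dilated libraries, at 16.3 and 29.1 CPM of Dusp1, also exceeded the untreated ones, at 10.0, 3.98 and 3.55 CPM, with a log2 fold change of 2.26 ± 0.53 that was not past the thresholds and within-run ratios of 1.62 and 7.73. In CBE and CB the groups overlapped, since untreated replicate 1 was as high as the dilated libraries. It had 46.3 CPM in CBE, against 5.67 and 8.32 CPM in the other untreated libraries and 21.1 and 32.0 CPM in the dilated ones. Within-run ratios in CBE were thus 0.456 and 4.58, in opposite directions.

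Dusp4, Dusp5 and Dusp6 were rare transcripts. Dusp4 encodes another nuclear MAP kinase phosphatase, and 67.5% of its 194 UMIs fell in stroma 1, at 34.1, 16.1 and 11.1 CPM in untreated, 13.7, 20.7 and 15.4 CPM in constricted and 30.6 and 43.3 CPM in dilated libraries. These ranges overlapped, through untreated replicate 1, and the log2 fold change was 1.05 ± 0.40, not past the thresholds. The within-run ratios, 0.898 and 3.19, lay in opposite directions. Dilator nuclei held 3 untreated and 29 dilated UMIs of Dusp4, a ratio per UMI of 9.61 (95% interval 2.98 to 49.3, counting error only).

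Dusp5 encodes a phosphatase that acts on ERK in the nucleus. In dilator muscle it had 1 UMI in the 3 untreated libraries and 39 in the 2 dilated ones. The levels were 0.623, 0 and 0 CPM in untreated, 0.387, 0 and 0.237 CPM in constricted and 2.07 and 3.61 CPM in dilated libraries, which did not overlap. The ratio of pooled counts was 38.8, with a counting interval from 6.56 to 1570. The fitted log2 fold change, 5.05 ± 1.00, rests on that 1 untreated UMI and is no bound. Of its 73 UMIs in all nuclei, 58.9% lay in dilator muscle.

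Dusp6 encodes the cytoplasmic phosphatase of ERK. Its untreated level was highest in leukocytes, at 0, 41.7 and 61.9 CPM, and stroma 1, at 19.7, 20.5 and 11.7 CPM, whose spreads overlapped. In stroma 1 the dilated libraries had 36.2 and 56.7 CPM, above all others, and the log2 fold change of 1.47 ± 0.34 was past the thresholds by a small margin, with within-run ratios of 1.83 and 3.52. It was not past them without untreated replicate 2 (1.70), untreated replicate 3 (1.19) or dilated replicate 2 (1.07). Dilator nuclei held little Dusp6, with 0.623, 0.422 and 0 CPM in untreated and 3.16 and 3.21 CPM in dilated libraries, a log2 fold change of 3.60 ± 0.74, with within-run ratios of 5.07 and 15.2. In stroma 2 the groups overlapped.

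**Figure D2:**
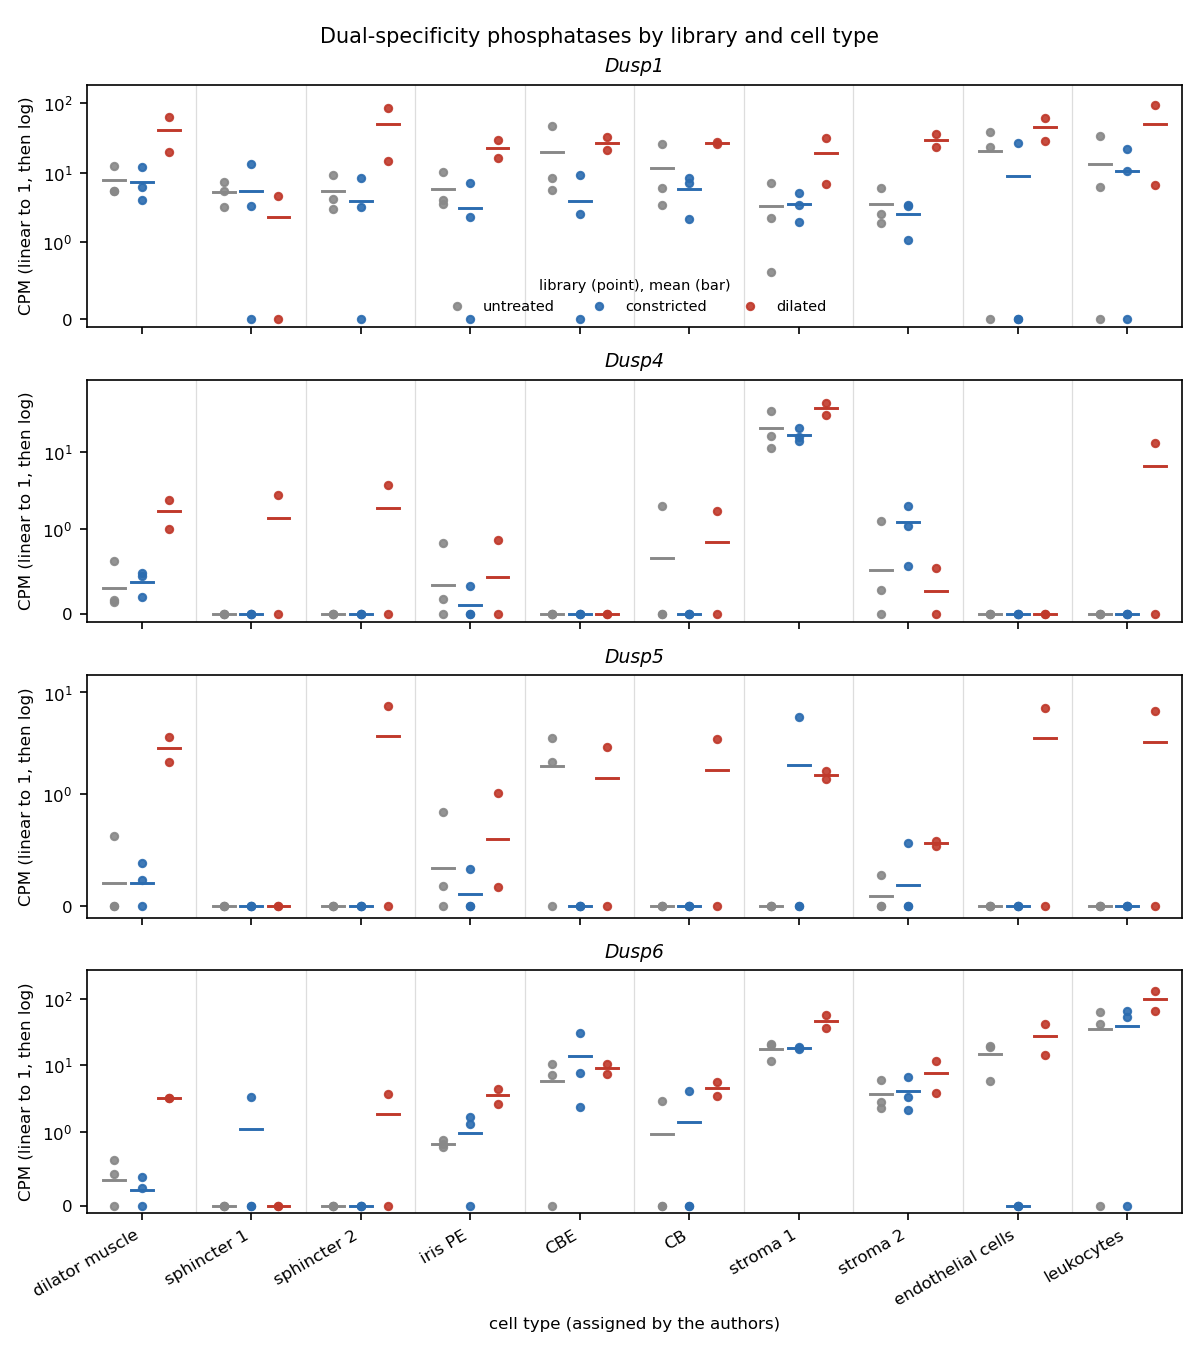
Levels of the 4 phosphatase genes in CPM (vertical axes, linear to 1 and logarithmic above) by cell type, with 1 point per library and a bar at the mean of a condition. Dusp4 and Dusp6 are highest in stroma 1 or leukocytes, the dilated libraries stand above the others in dilator muscle for all 4 genes, and untreated replicate 1 reaches the dilated levels of Dusp1 in CBE and CB.

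Spred1, whose product recruits neurofibromin to inactivate Ras, was detected in every cell type. In dilator muscle the untreated libraries had 14.96, 13.7 and 13.6 CPM, the constricted libraries 16.5, 12.0 and 14.7 CPM and the dilated libraries 46.9 and 40.5 CPM. The dilated libraries stood well above the narrow range of the other 6, with a log2 fold change of 1.82 ± 0.18 and within-run ratios of 3.13 and 2.97.

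Dilator muscle thus went from the lowest mean Spred1 level of the 10 untreated types, 14.1 ± 0.770 CPM (SD, n = 3), to 43.7 CPM. The dilated libraries also exceeded all untreated libraries in sphincter 1, iris PE, CB and stroma 1, an order not counted over all genes. The log2 fold changes there were 0.69 ± 0.39, 0.60 ± 0.20, 0.50 ± 0.32 and 0.74 ± 0.24, none of them past the thresholds. In sphincter 2 the groups overlapped, at 27.5, 31.2 and 25.2 CPM in untreated and 29.6 and 20.4 CPM in dilated libraries. They also overlapped in CBE and endothelial cells. Stroma 2, which held the largest share of the Spred1 UMIs (39.8%), had 138, 129 and 145 CPM in untreated and 132 and 145 CPM in dilated libraries, a log2 fold change of 0.06 ± 0.17. Leukocytes had the highest Spred1 level. They went the other way, from 298, 333 and 303 CPM in untreated to 235 and 185 CPM in dilated libraries, on 9 to 88 UMIs per library, with a log2 fold change of -0.53 ± 0.34.

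The Sprouty genes encode inhibitors of signaling from receptor tyrosine kinases to Ras. Spry2 was broadly present and highest on average in dilator muscle, with 38.0, 17.03 and 21.4 CPM in untreated, 18.2, 27.9 and 19.4 CPM in constricted and 25.8 and 19.8 CPM in dilated libraries. The groups overlapped fully, and the log2 fold change of dilated against untreated was 0.14 ± 0.28. Iris PE (0.19 ± 0.31) and stroma 2 (-0.13 ± 0.38) gave similarly small values. Both dilated libraries exceeded all untreated ones in 0 of the 10 types for Spry2. How often this holds over all genes was not counted, so this is a description only.

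Spry1 had 73.4% of its UMIs in stroma 2 and Spry4 had 78.7%. For Spry1 in stroma 2, untreated libraries had 47.1, 22.5 and 18.4 CPM, constricted libraries 18.5, 28.0 and 38.0 CPM and dilated libraries 41.5 and 81.2 CPM, which overlapped. The log2 fold change was 1.24 ± 0.40, not past the thresholds, and the ratio was 0.880 within the first run of library numbers and 3.97 within the last. For Spry4 in stroma 2, untreated libraries had 13.3, 5.32 and 5.66 CPM and dilated libraries 11.0 and 21.0 CPM, with a log2 fold change of 1.20 ± 0.43 and within-run ratios of 0.831 and 3.83. In both genes the overlap came from untreated replicate 1.

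**Figure D3:**
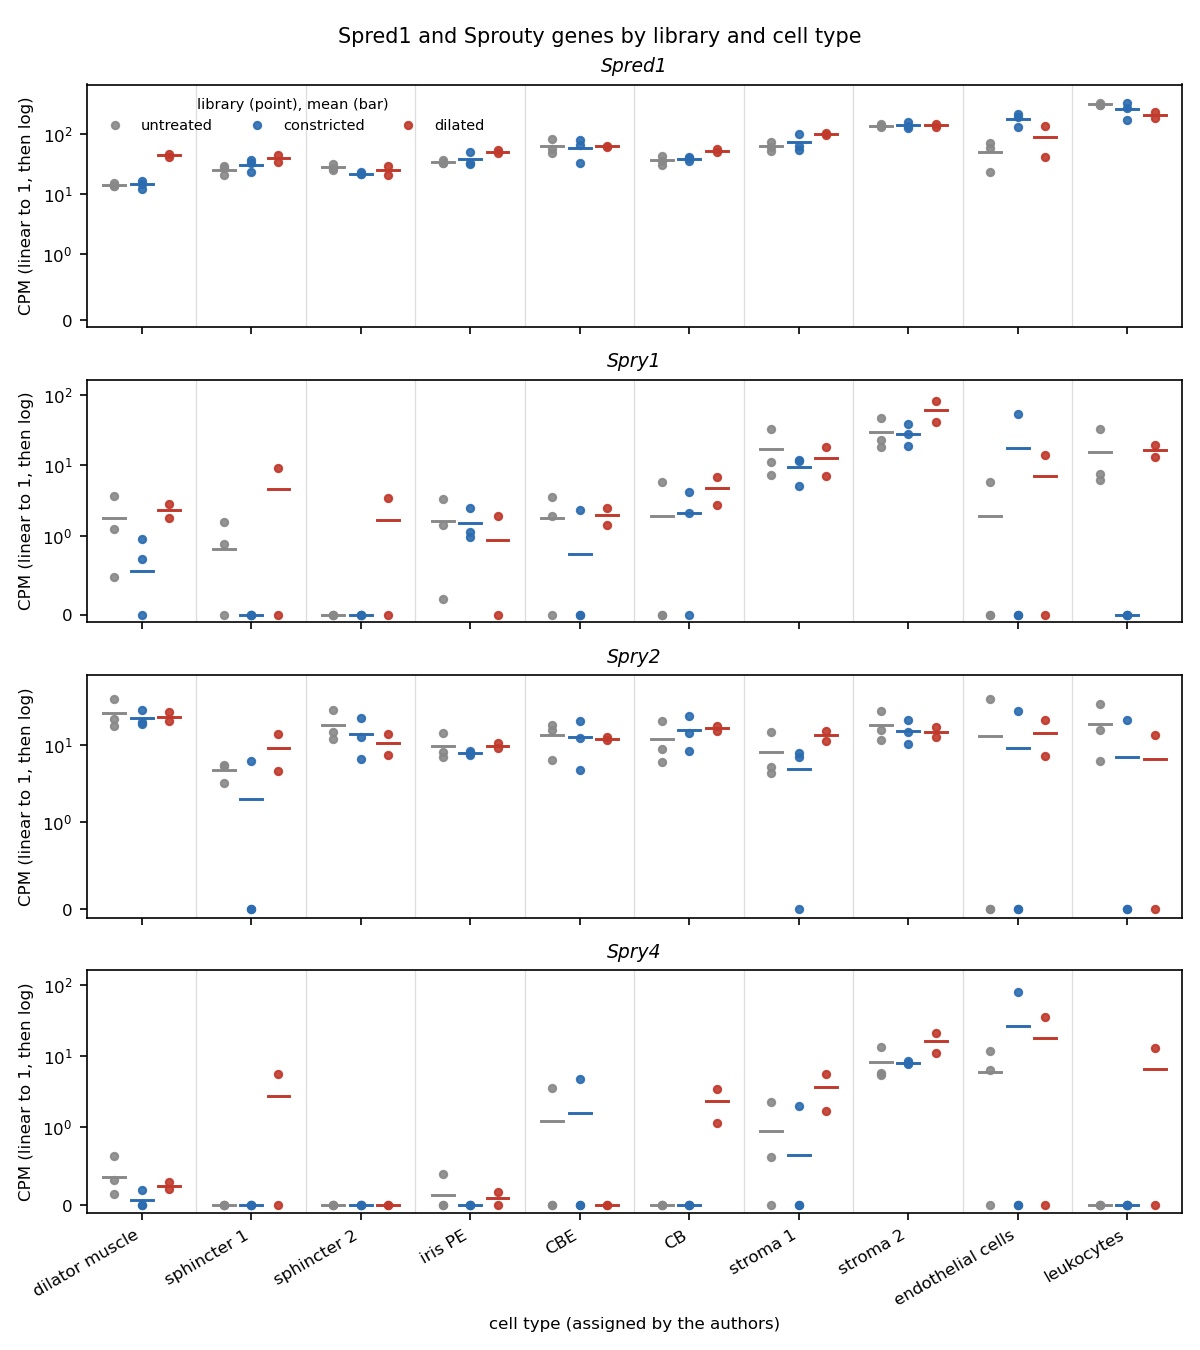
Levels of Spred1, Spry1, Spry2 and Spry4 in CPM (vertical axes, linear to 1 and logarithmic above) by cell type, with 1 point per library and a bar at the mean of a condition. Spred1 in dilator muscle is the clearest separation of dilated from untreated libraries, Spry2 overlaps in dilator muscle, and leukocytes carry the highest Spred1 level, with the dilated libraries below the untreated ones.

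Constriction was tested against no treatment, a comparison that shares the untreated libraries with the first. The members were chosen with earlier results of these data known, so these values are a description too. None of the 36 pairs of member and cell type that could be fitted was past the thresholds by edgeR's quasi-likelihood test, by DESeq2, or under any other setting tried. DESeq2 gave no adjusted p for 9 of the 36. Some of the 36 pairs entered through the dilated libraries, and when only the untreated and constricted libraries were fitted, 23 pairs had enough counts and 0 were past the thresholds. In the fits of all libraries, 0.0897% of all genes were past them in sphincter 2 and 0.0156% in stroma 2. The share was 0.00708% in iris PE, 0.0065% in dilator muscle and 0% in the other 6 types. At an unadjusted edgeR p under 0.05 there were 2 of the 36, both in dilator muscle, where 630 of all 15395 genes fitted were under it. Tmem158 was higher in all 3 constricted libraries than in all untreated ones, with a log2 fold change of 0.95 ± 0.25 (edgeR adjusted p = 0.911). Rasl11b was lower in all 3, with a log2 fold change of -1.12 ± 0.47 (edgeR adjusted p = 0.9999). Neither holds after correction, and with 3 libraries on each side and the few UMIs of Dusp5 (1.56 ± 1.48) and Dusp6 (-0.09 ± 1.15) in dilator muscle, a change of the size seen for Tmem158 would not have been detectable in these. For Spred1 in dilator muscle (0.07 ± 0.18) and in stroma 2 (0.03 ± 0.16) the errors were small.

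Dilated irises were also set beside constricted ones, a comparison that shares the dilated libraries with the first. Of the 36 pairs 10 were past the thresholds, all higher in dilated irises. They were 6 in dilator muscle (10.5% of all genes past the thresholds), 2 in sphincter 2 (2.45%) and 2 in stroma 2 (0.532%). In the cell types with no such member the share of all genes was 3.7% in sphincter 1, 0.672% in iris PE, 0.122% in CBE, 0.0931% in CB, 0.438% in stroma 1 and 0.0661% in leukocytes. Without dilated replicate 2 the count was 6. The log2 fold changes in dilator muscle were 3.91 ± 0.23 for Tmem158, 3.06 ± 0.45 for Rasl11b, 2.66 ± 0.53 for Dusp1, 3.49 ± 0.85 for Dusp5, 3.69 ± 0.78 for Dusp6 and 1.75 ± 0.18 for Spred1.

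**Figure D4:**
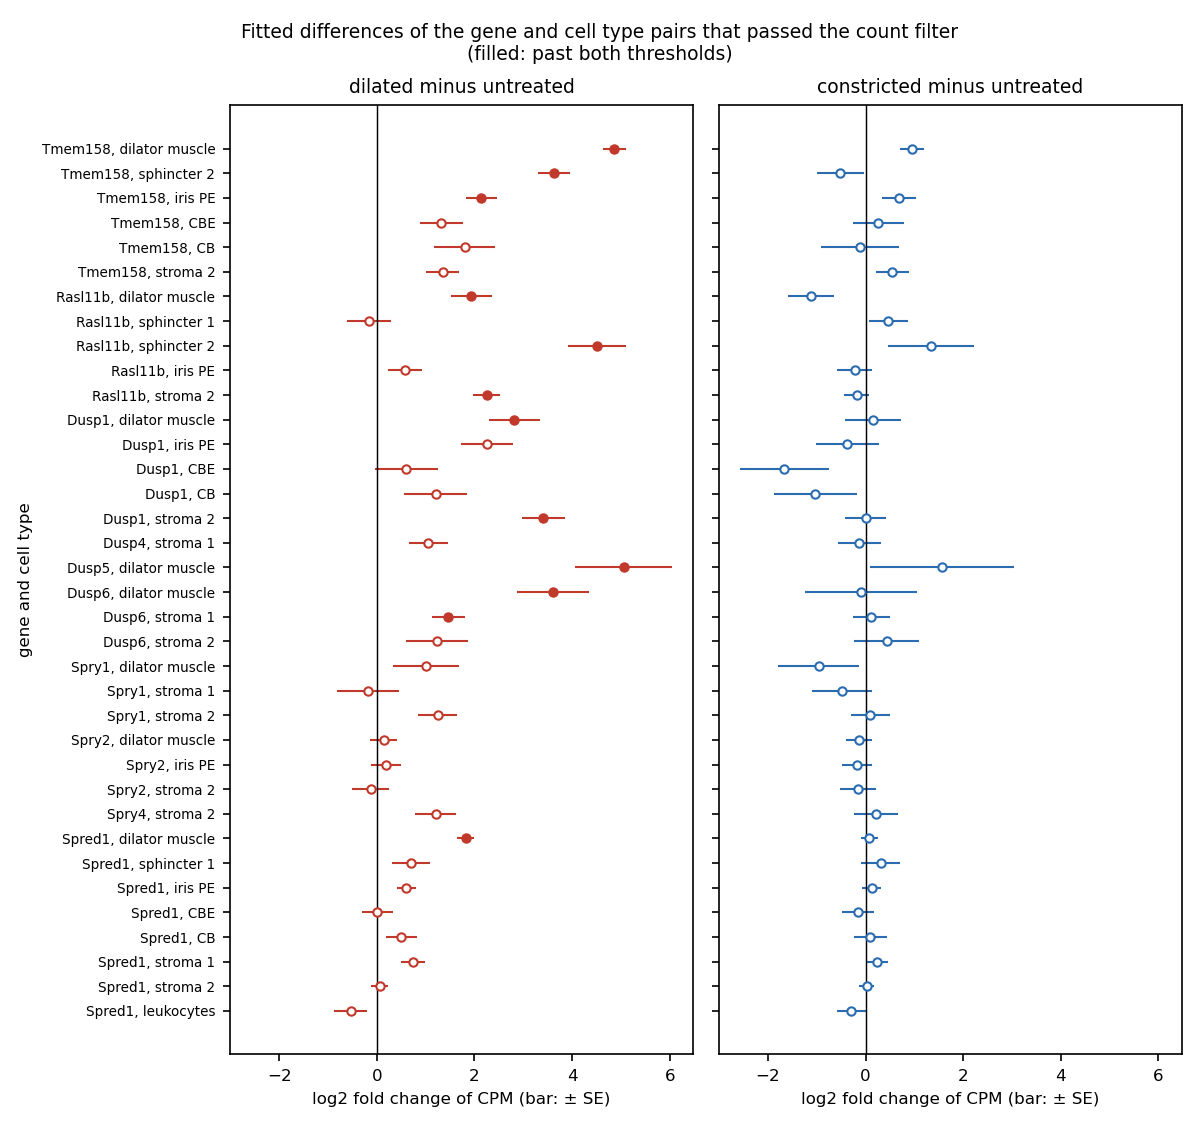
Log2 fold change with its standard error (horizontal axes) for the 36 pairs of gene and cell type (vertical axis) that could be fitted, for dilated minus untreated on the left and constricted minus untreated on the right. Filled points are past both thresholds, which 12 pairs are on the left, all above 0, and none on the right.

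To set the members in their pathway, 83 other Ras/ERK genes were listed by role, with earlier results of these data known, and 81 were in the table. Of 68 that could be fitted in dilator muscle, 17 rose and 2 fell with dilation by edgeR's quasi-likelihood test, to be read against 7.2% of all genes that rose and 6.14% that fell there. Their median log2 fold change was 0.26, against 0.02 for all genes fitted. Of the other Sprouty and Spred genes 2 could be fitted, Spred2 and Spred3, and both rose. Among the targets and effectors of ERK 6 of 14 rose and 1 fell, and among the GTPase-activating proteins of Ras 3 of 8 rose. Of 14 genes for Raf, MEK, ERK and their scaffolds 0 rose and 1, Ksr1, fell, and of 5 Ras exchange factors 0 changed. Rare genes such as Myc, Etv5 and Spred3 could enter the fit through the dilated libraries alone. Myc had a mean of 0.255 CPM untreated and 3.53 CPM dilated. Since earlier results were known when the list was drawn up, these counts are given as a description.

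Spred2, a relative of Spred1, had 9.97, 4.22 and 4.75 CPM in untreated, 10.5, 4.87 and 4.03 CPM in constricted and 83.9 and 54.9 CPM in dilated dilator nuclei. The dilated libraries were apart from all others, with a log2 fold change of 3.86 ± 0.33 (edgeR adjusted p = 2.79e-05). Spred2 also rose in iris PE (1.10 ± 0.19) and stroma 1 (1.55 ± 0.26). Spred3 rose from a mean of 0.694 to 6.07 CPM in dilator muscle.

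Etv5, an ETS transcription factor induced by ERK signaling, had 0, 0.844 and 0.633 CPM in untreated and 13.03 and 11.2 CPM in dilated dilator nuclei (log2 fold change 4.33 ± 0.50). Myc rose from a mean of 0.255 to 3.53 CPM (4.61 ± 0.80), and Phlda1 from 61.8 to 132 CPM (1.27 ± 0.17). Errfi1, a feedback inhibitor of the EGF receptor, rose from 9.53 to 33.9 CPM (1.94 ± 0.26).

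Rasa2, a GTPase-activating protein that turns Ras off, had 55.5, 48.7 and 54.7 CPM in untreated and 145 and 118 CPM in dilated dilator nuclei (1.496 ± 0.14, edgeR adjusted p = 4.41e-05). The phosphatase gene Dusp8 rose by 1.75 ± 0.40 on the log2 scale, but its constricted libraries, at 5.81, 15.95 and 16.1 CPM, reached the dilated ones, at 16.4 and 13.6 CPM. Rras, a GTPase close to Ras, rose by 1.39 ± 0.30 and Gab2, an adaptor, by 1.14 ± 0.16.

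**Figure D5:**
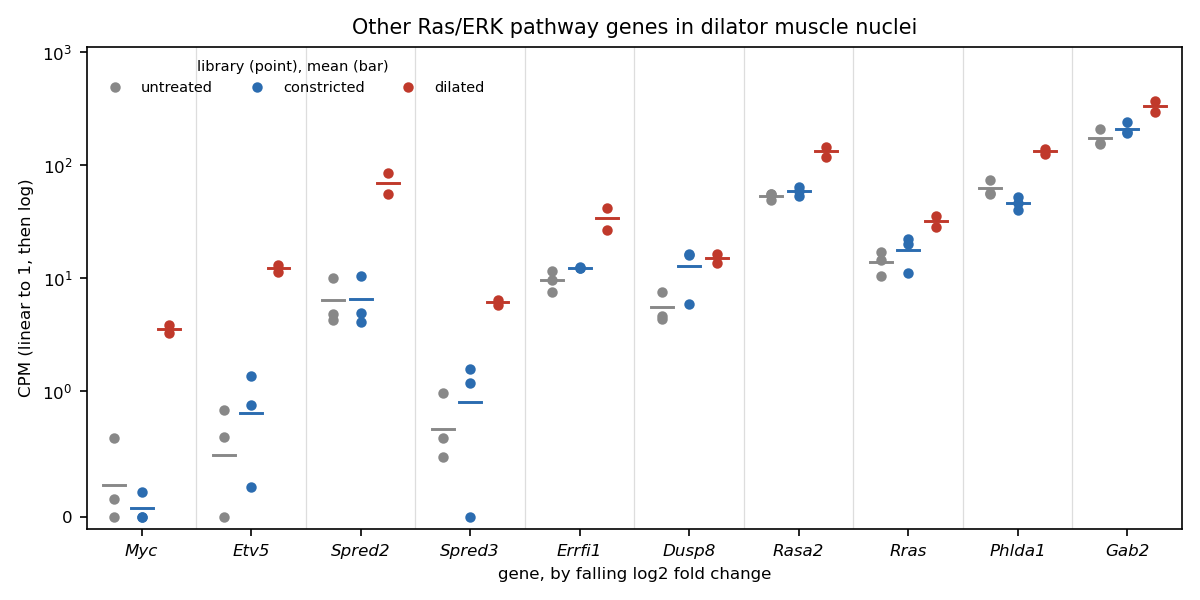
Levels of 10 other Ras/ERK genes in dilator muscle nuclei in CPM (vertical axis, linear to 1 and logarithmic above), ordered by falling log2 fold change of dilated against untreated, with 1 point per library and a bar at the mean of a condition. The dilated libraries lie above all untreated libraries for each gene, and the constricted libraries of Dusp8 reach them.

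In the other cell types 9 pairs of pathway gene and cell type rose and 2 fell. Of the pathway genes fitted, 4 of 65 rose in stroma 2, 3 of 47 in stroma 1 and 2 of 63 in iris PE, beside 1.35%, 0.786% and 0.453% of all genes. In sphincter 1, 1 of 45 fell, beside 1.32% of all genes, and in leukocytes 1 of 34, beside 0.562%. None changed in sphincter 2 (0 of 43, beside 2.87% of all genes), CBE (0 of 48, 0.0122%), CB (0 of 42, 0.0665%) or endothelial cells (0 of 15, 0%). In stroma 2 Errfi1 rose by 2.66 ± 0.40, Dusp8 by 3.77 ± 0.77 and Rasa3 by 1.82 ± 0.31 on the log2 scale, and in stroma 1 Dusp16 rose by 1.23 ± 0.24 and Rasa2 by 0.92 ± 0.17. In iris PE Cnksr2, a scaffold gene, rose by 1.60 ± 0.30. Dusp10, a phosphatase of other MAP kinases, fell by 2.09 on the log2 scale (SE 0.48) in sphincter 1, from 64.5, 35.1 and 45.1 CPM to 8.18 and 11.5 CPM. Rasgrp3, a Ras exchange factor, fell by 2.84 (SE 0.58) in leukocytes, from 132, 235 and 285 CPM to 13.1 and 66.0 CPM.

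The share of all genes that changed with dilation ran from 0% in endothelial cells to 13.3% in dilator muscle. Beside this, over all cell types 30 of 470 pairs of pathway gene and cell type changed with dilation, 26 higher and 4 lower. This count depended on single libraries, at 13 without untreated replicate 2, 12 without untreated replicate 3, 19 without dilated replicate 1 and 18 without dilated replicate 2. With constriction 0 of 470 changed by edgeR's quasi-likelihood test and 0 by DESeq2, which gave no adjusted p for 83 of them. An unadjusted edgeR p under 0.05 was found for 26 of the 470. In dilator muscle these were 4 of 68, beside 630 of all 15395 genes fitted. The values were 3 of 63 beside 617 of 14128 in iris PE, and 4 of 65 beside 676 of 12788 in stroma 2.

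Markers of other cells and tissues were also followed. Summed over the library, 3 lens genes had 2.60 to 4.82 CPM in untreated, 2.97 to 4.08 CPM in constricted and 3.74 to 13.3 CPM in dilated libraries, and 2 hemoglobin genes had 1.85 to 5.56, 2.47 to 10.9 and 10.3 to 11.4 CPM, so that hemoglobin was higher in both dilated than in all untreated libraries. The 3 Schwann cell genes had 22.2 to 24.3 CPM in untreated, 20.4 to 30.0 CPM in constricted and 15.1 to 22.8 CPM in dilated libraries. The 4 retina genes had 10.3 to 18.3, 7.98 to 13.03 and 7.65 to 13.9 CPM. Krt12 of the cornea stayed under 1 CPM in every library. The part of RNA from these cells in the differences above was not tested.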

How the data were processed

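Nuclei of 8 libraries, each a separate pool of irises, were profiled with 10x Chromium v3. The authors aligned reads to mm10, introns included, counted UMIs with Cell Ranger 3.1.0, filtered nuclei by mitochondrial and transcript limits, and assigned cell types with Seurat. They deposited raw UMI counts for each nucleus, and the percent of mitochondrial transcripts. For each library, the nuclei of a type were added up here and scaled to CPM. Differences were fitted with edgeR 4.0.16 in R 4.3.3 (TMM, filterByExpr, quasi-likelihood test, two-sided), separately for each cell type on all libraries, and p-values were adjusted by Benjamini-Hochberg over all genes fitted. SE is the log2 fold change divided by the root of F. The authors' t-test on nuclei was not used, since nuclei of 1 library are not replicates. No doublet caller was run.

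The members and lists were chosen with earlier results of these data known. Named were all members and, of the pathway list, changed genes whose libraries did not overlap, by size of change, up to 10 in dilator muscle and 3 in each other type, and the 5 genes most like Tmem158 and Rasl11b. Ksr1 and the promoters were chosen after their values were seen. Scripts were tested on simulated data. Alternatives were DESeq2 1.42.0, other normalizations and filters, a replicate block, a term for the run of library numbers, and leaving out libraries or nuclei. GENCODE vM21 matched 22511 of 22873 genes by name.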

Additional observations from a re-analysis of the deposited data

Results flagged for a closer look

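The difference of Spred1 between dilated and untreated irises differed in sign between cell types. In leukocytes both dilated libraries, with a mean of 209.9 CPM, were below every untreated library, with a mean of 312 CPM. In dilator muscle, sphincter 1, iris PE, CB and stroma 1 both were above every untreated library. The share of all genes with such an order was not counted. Of these differences dilator muscle alone was past the thresholds, and the log2 fold change in leukocytes, -0.53 ± 0.34, was not. The difference between cell types was not tested, only genes with at least 30 UMIs in a cell type were looked at, and constricted leukocytes, at 173, 325 and 271 CPM, covered the dilated range.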

How the results depend on the processing

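The number of member and cell type pairs past the thresholds for dilated against untreated (12) was 11 to 16 under 8 alternatives that left out no single library, and 20 of 96 without a filter on low counts. Of these 20, 12 were past the thresholds with the filter, 3 were fitted there without being past them and 5 were not fitted. DESeq2 gave no adjusted p for 9 of the 36 pairs. Leaving out single libraries gave 8 to 14, for dilated against constricted (10) 6 to 12, and for the pathway genes (30) 12 to 35. No log2 fold change of the 12 pairs changed sign. Of the alternatives, leaving out nuclei whose barcode occurs in another library was chosen after seeing the data.

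Deviations of libraries from the mean of their condition were correlated in dilator muscle only. Libraries with the same replicate number did not deviate together in every pair (correlation of -0.03 to 0.43 over 7 pairs). The numbers were not taken as pairs. The 8 pairs of libraries from the same run of numbers correlated at 0.18 to 0.43, and the labels do not call a run a batch. Since the deviations of the 2 dilated libraries mirror each other, these correlations are not independent and cannot settle the pairing. With a replicate block 13 pairs of member and cell type and 38 pathway pairs were past the thresholds for dilated against untreated, 12 member pairs for dilated against constricted, and 0 for constricted against untreated. Dusp6 in stroma 1 (1.33 on the log2 scale) was then not past them. With the run of library numbers as a term, 16 member pairs and 44 pathway pairs were. The causes of these shifts were not tested. Depth limits Dusp4, Dusp5, Spry4 and all members in endothelial cells and leukocytes.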

Other observations

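The genes whose levels followed Tmem158 most closely over the 80 sums of library and cell type, by Pearson's r of log2(CPM + 1) among 13090 genes with a mean of at least 5 CPM, were Tnfrsf12a (0.61), Rab3b (0.58), Jund (0.55), Dnpep (0.55) and Bod1 (0.55). Tnfrsf12a, the receptor of the cytokine TWEAK, stood at 1.61 CPM in untreated and 75.3 CPM in dilated dilator muscle, but at 3.86 and 5.26 CPM in sphincter 2, where Tmem158 was highest. Rab3b went from 45.1 to 228 CPM in dilator muscle. Among the members that met the minimum level, Dusp1 had an r of 0.45 with Tmem158 (rank 98) and Rasl11b 0.38 (rank 444). Spry2 had 0.27, Spry1 0.09, Dusp6 -0.02 and Spred1 -0.14.

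The genes closest to Rasl11b were Ctxn3 (0.80), Plcxd3 (0.73), 1700011I03Rik (0.72), Itgbl1 (0.72) and Ccdc3 (0.71). Ctxn3 went from 59.3 to 229 CPM in stroma 2 and from 41.8 to 22.7 CPM in sphincter 1, both as means of untreated and dilated libraries, while Plcxd3 had 2427 and 2148 CPM in stroma 2. The sums share libraries, depth and cell types, so these values describe likeness only.

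Within dilated dilator nuclei thinned to 1000 UMIs, a Spred1 UMI was found in 4.89% of nuclei with and 4.31% of nuclei without a Tmem158 UMI in replicate 1, and in 4.43% and 2.90% in replicate 2. For Rasl11b the values were 1.47% and 2.09%, and 1.97% and 3.54%. In stroma 2 a Dusp1 UMI was found in 3.54% of nuclei with and 1.62% without a Rasl11b UMI in replicate 1, and in 3.98% and 2.68% in replicate 2. These shares rest on few nuclei, for Dusp1 18 and 13 in replicate 1 and 16 and 8 in replicate 2. For Rasl11b in dilator muscle the nuclei were 6 and 45, and 4 and 39. Other gene pairs were counted but are not given here, and no difference was tested.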
